A study of Homo sapiens with 12 samples.

Results

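The genes described here are 8 epithelial antimicrobial and secreted defence genes: LCN2, DEFB1, SLPI, PI3, PIGR, C3, CFB and OLR1. They were taken by gene symbol from a table of 23284 genes, and the choice was made with their difference between degron (++) and degron (−) cells already known. That difference is therefore given as a description with no test. The comparisons by dose, by time and of these effects between the populations were tested, and they use the same libraries as the comparison the genes were chosen on. A gene entered the tests when at least 2 libraries had 1 FPKM or more, where FPKM is fragments per kilobase of exon, scaled to the mapped reads of the library. This left 12946 genes and 7 of the 8 members, with PIGR falling below the limit.

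All libraries came from PANC-1, a human pancreatic ductal carcinoma cell line, infected with a retrovirus that carries a reporter, the fluorescent protein ZsGreen joined to the ornithine decarboxylase degron. The proteasome destroys this reporter, so cells with low proteasome activity stay green. The infected line as a whole, with few green cells, was called degron (−), and degron (++) cells are the greener part of a population obtained from it by repeated sorting and culture. Each population was sequenced unirradiated at 48 h (0 Gy) and at 30 h and 48 h with 4 Gy (6 groups of 2 libraries, 12 in all), and the start of the hours is not given in the labels. The titles call the second population ZsGreen–, whereas its descriptions begin with d+, and the titles were followed here. Nothing in the labels says whether the 2 libraries of a group came from separate cultures, so p-values measure only the spread between these libraries, which may be technical. There was no unirradiated library at 30 h, so a change with time after 4 Gy could not be set against one without irradiation.

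The labelled cell type was checked against its markers. All 6 markers of ductal epithelium (EPCAM, KRT7, KRT8, KRT18, KRT19 and CDH1) reached 1 FPKM. Their summed level was 7184 to 8369 FPKM in degron (++) and 4226 to 5137 FPKM in degron (−) libraries. CDH1 was at 62.8 to 66.6 FPKM in degron (++) and 6.56 to 12.8 FPKM in degron (−) libraries. EPCAM was at 176 to 205 against 29.9 to 52.8 FPKM, and KRT7 at 1142 to 1437 against 133 to 273 FPKM. KRT8, KRT18 and KRT19 differed less, with KRT19 at 816 to 951 against 667 to 774 FPKM. The 6 fibroblast markers summed to 14.5 to 25.4 FPKM in degron (++) and 37.2 to 53.9 FPKM in degron (−) libraries. PANC-1 is commonly described as rich in vimentin and as having lost CDKN2A. In degron (++) libraries VIM was only 13.2 to 19.2 FPKM, against 2376 to 2711 FPKM in degron (−) libraries. CDKN2A was present at 100.4 to 112 FPKM in degron (++) and at 11 to 21.1 FPKM in degron (−) libraries. On these genes the degron (++) libraries go against what is known of the line. On CDKN2A the degron (−) libraries go against it too, at a lower level. These levels held for every library of each population, so no value can be given without such libraries. Their part in the results below was not tested. For each of the 12 libraries, the library that correlated with it most closely was of its own population. Replicates correlated at r = 0.961 to 0.975 across genes. Since the defence genes are also products of neutrophils, macrophages and liver, markers of those cells were read as well. The 7 neutrophil markers summed to at most 0.374 FPKM in degron (++) and to 2.01 to 3.76 FPKM in degron (−) libraries, with MPO, CTSG, FCGR3B and CSF3R at 0 throughout and AZU1 the only one to reach 1 FPKM. The 9 leukocyte markers summed to 1.61 to 3.31 FPKM over all libraries and the 4 hepatocyte markers to 0.372 to 1.14 FPKM.

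Epithelia that face the outside make a chemical barrier of secreted proteins. Lipocalin 2 binds bacterial siderophores and withholds iron, beta-defensin 1 is a small cationic peptide that damages microbial membranes, and secretory leukocyte peptidase inhibitor and elafin block neutrophil elastase and are themselves antimicrobial. Complement C3 and factor B form the core of the alternative complement pathway, and the polymeric immunoglobulin receptor carries IgA and IgM across the epithelium. Many of these genes are induced by NF-kB, C/EBP and STAT3 factors during inflammation, and several are made by ducts of the pancreas and by carcinomas that arise from them.

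Lipocalin 2 (LCN2) was the most abundant of the 8 genes in degron (++) cells. The unirradiated libraries held 374 and 369 FPKM. With 4 Gy the values were 368 and 390 FPKM at 30 h, then 402 and 434 FPKM at 48 h. In degron (−) cells the same conditions, in this order, gave 27.2 and 26.8 FPKM, 26.2 and 25.8 FPKM, and 47.5 and 61.6 FPKM. No degron (−) library came near the lowest degron (++) library, and within degron (−) the irradiated libraries at 48 h stood above the other 4. The ratio of the means was 13.8 without irradiation, then 14.6 at 30 h and 7.67 at 48 h with 4 Gy. By mean FPKM, LCN2 was number 209 of the 12946 genes tested in degron (++) cells and number 2787 in degron (−) cells.

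The stretch before the start of LCN2, the member with the largest mean difference, is shown because it holds a match to the NF-kB binding motif, and genes of the NF-kB system are described below. It covers chr9:128149265-128149440 on the plus strand of GRCh38.p14, taken from RefSeq, and overlaps no exon of the GENCODE annotation. Capitals mark the match to GGGNNNNNCC, searched on both strands, which begins 176 bases before the transcription start. The printed stretch ends short of that start, so distances to the start cannot be counted from its last base.
LCN2 promoter: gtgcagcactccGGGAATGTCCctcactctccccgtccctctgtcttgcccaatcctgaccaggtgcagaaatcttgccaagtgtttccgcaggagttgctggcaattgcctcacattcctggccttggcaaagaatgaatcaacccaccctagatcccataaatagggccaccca
A further match on the minus strand overlaps it by all but 1 base. This motif is common, with 54.4% of 35116 RefSeq windows of 250 bases before a start holding it, so the match is a description of the letters only. A match to the AP-1 motif TGANTCA, held by 6.57% of the windows, begins 52 bases before the LCN2 start. The RefSeq table held windows for 3 of the 8 genes. The CFB window held 4 matches to GGGNNNNNCC, against 2 in that of LCN2. It also had matches to the interferon-type motif GAAANNGAAA (3.02% of windows) and to the STAT-type motif TTCNNNGAA (6.57% of windows), and the PIGR window had none of the 5 motifs searched, the fifth being TATAAA, which was found in the CFB window only.

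Beta-defensin 1 (DEFB1) was scarce in degron (−) cells. In degron (++) cells it was at 17.2 and 18 FPKM without irradiation, and with 4 Gy at 12.9 and 16.5 FPKM (30 h) and at 24.3 and 21.4 FPKM (48 h). In degron (−) cells it was at 0.646 and 0.335 FPKM, at 0 and 0.979 FPKM, and at 0.836 and 2.70 FPKM. The lowest degron (++) library was well above the highest degron (−) library. Its FPKM values fell on whole multiples of a constant step once each was scaled by the relative depth of its library, so the number of fragments behind each value could be inferred. On this scale degron (++) cells had 108, 84 and 136 fragments of DEFB1 over the 2 libraries of the 3 conditions, and degron (−) cells had 3, 3 and 12. The ratio per depth was 35.8 (95% exact interval 11.9 to 176) without irradiation, 31.1 (10.3 to 154) at 30 h with 4 Gy and 13.1 (7.29 to 26.1) at 48 h with 4 Gy, and these intervals cover counting error only.

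The antiproteases differed from each other in level and in pattern. Secretory leukocyte peptidase inhibitor (SLPI) was close to LCN2 in abundance in degron (++) cells, with 320 and 303 FPKM unirradiated, 272 and 274 FPKM at 30 h and 304 and 325 FPKM at 48 h with 4 Gy. In degron (−) cells it was at 48.5 and 39.4 FPKM, at 31.4 and 35 FPKM, and at 55.4 and 71.9 FPKM. The populations did not overlap, and the ratio of the means was 7.08, 8.22 and 4.95 in the same order. Elafin (PI3), which is encoded near SLPI and has a related inhibitory domain, was low everywhere. It was at 1.22 and 0.95 FPKM, at 1.95 and 2.19 FPKM and at 3.33 and 2.40 FPKM in degron (++) cells, and at 0.714 and 0.741 FPKM, at 0 and 0.241 FPKM and at 1.44 and 1.33 FPKM in degron (−) cells. The populations overlapped for PI3, because irradiated degron (−) libraries at 48 h were above unirradiated degron (++) libraries. At 0 Gy and 48 h its inferred fragments were 9 in degron (++) and 6 in degron (−), a ratio of 1.49 (95% exact interval 0.474 to 5.09), which does not separate the populations at this depth. With 4 Gy they were 16 and 1 at 30 h, a ratio of 17.7 (2.76 to 744). At 48 h with 4 Gy they were 23 and 13, a ratio of 2.05 (0.997 to 4.41). These intervals cover counting error only.

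Among the complement genes, C3, the protein on which all complement pathways converge, held a narrow level in degron (++) cells. Its values there were 83.0 and 85.0 FPKM, 85.8 and 85.3 FPKM, and 84.0 and 86.2 FPKM in the same order of conditions. In degron (−) cells C3 was at 24.3 and 22.7 FPKM, at 18.1 and 21.3 FPKM, and at 34.3 and 38.8 FPKM. The populations did not overlap, and the ratio of the means was 3.58, 4.35 and 2.33. Complement factor B (CFB), which binds activated C3 to form a convertase, was scarcer, with 3.03 and 2.48 FPKM, 1.55 and 1.88 FPKM, and 1.54 and 2.02 FPKM in degron (++) cells. In degron (−) cells CFB was at 0.204 and 0.353 FPKM, at 0.130 and 0.172 FPKM, and at 0.382 and 0.601 FPKM. The populations did not overlap for CFB either. Its inferred fragments were 160, 93 and 101 in degron (++) and 16, 9 and 32 in degron (−) cells, and the ratio per depth was 9.93 (5.93 to 17.8), 11.5 (5.78 to 25.9) and 3.66 (2.44 to 5.63).

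The lectin-like oxidised LDL receptor (OLR1), a scavenger receptor of the cell surface, was at 28.7 and 30.7 FPKM, 39.3 and 39.9 FPKM, and 47.0 and 48.4 FPKM in degron (++) cells. In degron (−) cells it was at 1.69 and 1.48 FPKM, 1.89 and 2.06 FPKM, and 5.11 and 4.71 FPKM. In each population the unirradiated libraries were the lowest and the irradiated libraries at 48 h the highest, with no overlap between the 3 conditions. The ratio of the population means was 18.7, 20.1 and 9.72. The polymeric immunoglobulin receptor (PIGR) was close to absent, at 0 and 0.02 FPKM, 0.0950 and 0.0210 FPKM, and 0.0650 and 0 FPKM in degron (++) cells and at 0 in all 6 degron (−) libraries. These values correspond to 0, 1, 4, 1, 3 and 0 inferred fragments in degron (++) cells. By condition the sums were 1, 5 and 3 fragments in degron (++) cells against 0 in degron (−) cells, where the 95% exact interval reaches up to 3.69 fragments for each sum of 0.

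**Figure D1:**
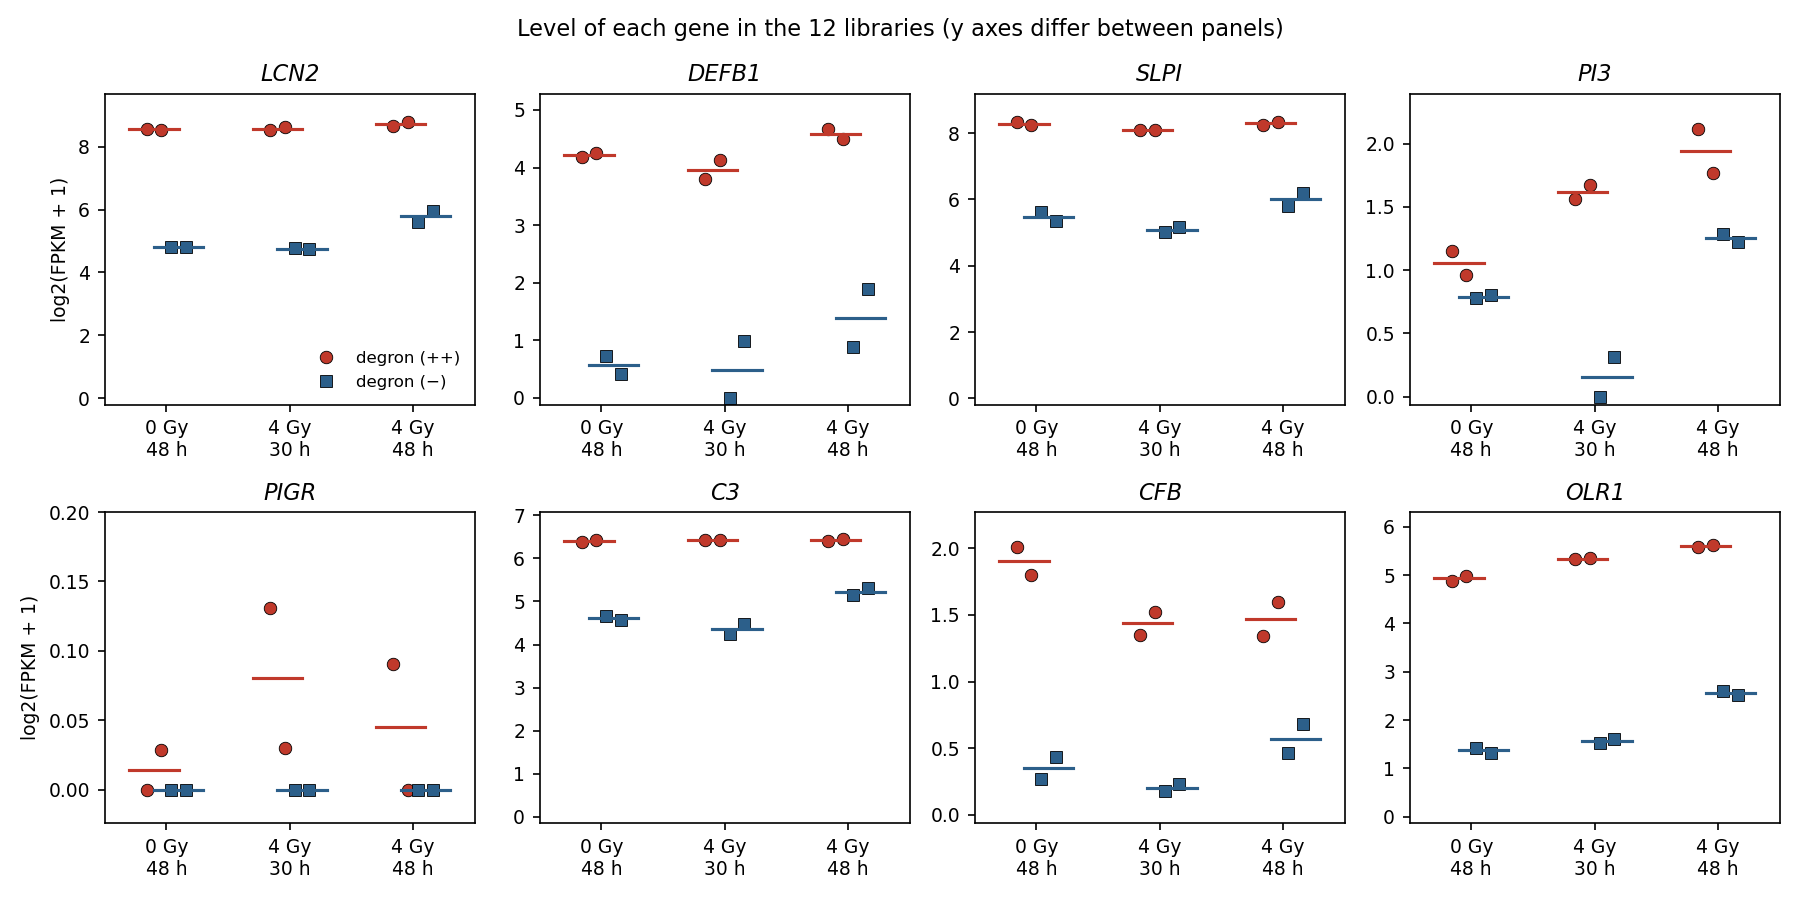
Level of the 8 genes in every library, as log2(FPKM + 1), by condition; red circles are degron (++) and blue squares degron (−) libraries, and lines are means of 2 libraries. LCN2, DEFB1, SLPI, C3, CFB and OLR1 have all red points above all blue points, PI3 overlaps between populations, and PIGR stays below 0.1 FPKM in all 12 libraries.

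In this description, 6 of the 8 genes had all 6 degron (++) libraries above all 6 degron (−) libraries, and none had them all below. Of all genes tested, 34.1% were above in this sense and 37.2% below, so a full separation of the populations was common in these data. By mean difference on the log2(FPKM + 1) scale over the 3 conditions, LCN2 was number 21, OLR1 number 23 and DEFB1 number 24 from the top of the 12946 genes. SLPI was number 78, C3 number 525, CFB number 987 and PI3 number 1888. The mean log2 difference was 3.49 for LCN2, 3.46 for OLR1, 3.44 for DEFB1, 2.70 for SLPI, 1.69 for C3, 1.23 for CFB and 0.81 for PI3. This scale understates the differences of DEFB1, CFB and PI3, whose levels in degron (−) cells were near or below the pseudocount of 1.

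By level per length, the order in degron (++) cells was LCN2, SLPI, C3, OLR1, DEFB1, CFB, PI3 and PIGR, with means over the 6 libraries of 390 FPKM, 299.6 FPKM, 84.9 FPKM, 39.0 FPKM and 18.4 FPKM for the 5 highest. CFB (2.08 FPKM) and PI3 (2.0 FPKM) did not differ beyond their spread over libraries, and PI3 was above CFB within each irradiated library. In degron (−) cells SLPI came first, at a mean of 46.9 FPKM, and LCN2 was next at 35.9 FPKM. The ranges of these 2 genes overlapped in degron (−) cells, where LCN2 ran from 25.8 to 61.6 FPKM and SLPI from 31.4 to 71.9 FPKM. C3 followed at 26.6 FPKM, and OLR1 was at 2.82 FPKM, with DEFB1 (0.917 FPKM), PI3 (0.743 FPKM) and CFB (0.307 FPKM) below it and overlapping in range.

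The dose question was whether 4 Gy changed these genes at 48 h. In degron (++) cells OLR1 and PI3 rose after irradiation, and the others did not pass the test. OLR1 went from a mean of 29.7 ± 1.48 FPKM to 47.7 ± 0.95 FPKM (SD, n = 2 each), a log2 difference of 0.67 ± 0.0621 (SE, adjusted p = 0.00531, limma on log2(FPKM + 1) with Benjamini-Hochberg adjustment over all genes tested). PI3 went from 1.08 ± 0.190 FPKM to 2.86 ± 0.658 FPKM (SD, n = 2 each), a log2 difference of 0.88 ± 0.141 (SE, limma adjusted p = 0.0261). In fragments the PI3 values were 9 at 0 Gy and 23 at 4 Gy, a ratio per depth of 2.63 (95% exact interval 1.17 to 6.45). These 2 calls among 7 members compare with 1.82% of all genes called in this comparison. The call of PI3 was lost without any 1 of the 4 libraries compared (adjusted p = 0.0702 to 0.116), without the filter (0.0699), with a pseudocount of 0.1 (0.196) and with rescaling to TPM, a fixed sum per library (0.0789), and that of OLR1 without replicate 1 at 0 Gy (adjusted p = 0.0691) or replicate 2 at 4 Gy (adjusted p = 0.0540). No member of the 7 was called in a fit of these 4 libraries alone, where 17 of all genes were called in place of 236.

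LCN2, SLPI, C3, DEFB1 and CFB were not called by dose in degron (++) cells. LCN2 had a log2 difference of 0.17 ± 0.0979 (SE), and the means of SLPI and C3 at 4 Gy and 0 Gy stood at ratios of 1.01 and 1.01. CFB was lower at 4 Gy, with 101 fragments against 160 and a ratio per depth of 0.649 (95% exact interval 0.501 to 0.838, counting error only). Its log2 difference of −0.44 ± 0.129 (SE) did not pass the limma test (adjusted p = 0.132).

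In degron (−) cells LCN2, OLR1 and C3 rose with dose at 48 h. LCN2 went from 27.0 ± 0.255 FPKM to 54.6 ± 9.96 FPKM (SD, n = 2 each), a ratio of 2.02 and a log2 difference of 0.98 ± 0.0979 (SE, limma adjusted p = 0.0022). OLR1 went from 1.58 ± 0.148 FPKM to 4.91 ± 0.281 FPKM, a ratio of 3.10 and a log2 difference of 1.19 ± 0.0621 (SE, limma adjusted p = 0.000273). C3 went from 23.5 ± 1.14 FPKM to 36.6 ± 3.20 FPKM, a ratio of 1.56 and a log2 difference of 0.62 ± 0.0776 (SE, limma adjusted p = 0.00527). SLPI stood just outside the threshold, with a ratio of 1.45 and a log2 difference of 0.52 ± 0.126 (SE, limma adjusted p = 0.0544), and it passed with a filter at FPKM 5 (0.0484), with quantile normalization (0.0419), and without degron (−) replicate 1 at 0 Gy (0.0499) or at 4 Gy and 48 h (0.0237). PI3 had 13 fragments against 6 (limma adjusted p = 0.102), DEFB1 had 12 against 3 (0.244) and CFB had 32 against 16 (0.378). The 3 calls among 7 members compare with 4.73% of all genes called, and all 3 held without each of the 12 libraries in turn. In a fit of the 4 libraries alone none of the 3 was called (adjusted p = 0.0786 to 0.141).

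The time question was whether these genes differed between 30 h and 48 h with 4 Gy, and it uses the same irradiated libraries at 48 h as the dose comparison. In degron (−) cells LCN2, OLR1, C3, SLPI and PI3 were higher at 48 h. LCN2 rose from 26.0 ± 0.334 FPKM to 54.6 ± 9.96 FPKM (SD, n = 2 each; log2 difference 1.03 ± 0.0979 SE, limma adjusted p = 0.000833). OLR1 rose by a log2 difference of 0.99 ± 0.0621 (SE, limma adjusted p = 0.000165), from 1.97 ± 0.115 FPKM. C3 rose by 0.86 ± 0.0776 (SE, limma adjusted p = 0.000656), from 19.7 ± 2.26 FPKM. SLPI rose from 33.2 ± 2.56 FPKM to 63.6 ± 11.7 FPKM (log2 difference 0.91 ± 0.126 SE, limma adjusted p = 0.00387). PI3 had 1 fragment at 30 h and 13 at 48 h, a ratio per depth of 11.8 with an interval of 1.78 to 503, and a log2 difference of 1.10 ± 0.141 (SE, limma adjusted p = 0.00279). These 5 calls among 7 members compare with 7.18% of all genes called, and all 5 held without each library in turn. In a fit of the 4 libraries alone none was called (adjusted p = 0.0682 to 0.0991).

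CFB and DEFB1 had the same direction in degron (−) cells without passing the test. CFB had 9 fragments at 30 h and 32 at 48 h, a ratio per depth of 3.24 (95% exact interval 1.51 to 7.71), and a log2 difference of 0.37 ± 0.129 (SE, limma adjusted p = 0.132). With a pseudocount of 0.1 in place of 1, that difference became 1.22 and passed (limma adjusted p = 0.0323). CFB did not exceed 0.601 FPKM in any degron (−) library, so it met the filter through degron (++) libraries alone. DEFB1 had 3 fragments against 12 (limma adjusted p = 0.19). In degron (++) cells no member was called between 30 h and 48 h by limma, against 1.21% of all genes, and 2 of the 7 had an unadjusted p under 0.05. Those were OLR1 (log2 difference 0.26 ± 0.0621 SE, adjusted p = 0.0946) and PI3 (0.32 ± 0.141 SE, adjusted p = 0.314). DEFB1 had 84 fragments at 30 h and 136 at 48 h in degron (++) cells, a ratio per depth of 1.54 (95% exact interval 1.17 to 2.05, counting error only). Its limma log2 difference was 0.61 ± 0.362 (SE, estimated over the replicates of all 6 groups), with an adjusted p of 0.465.

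**Figure D2:**
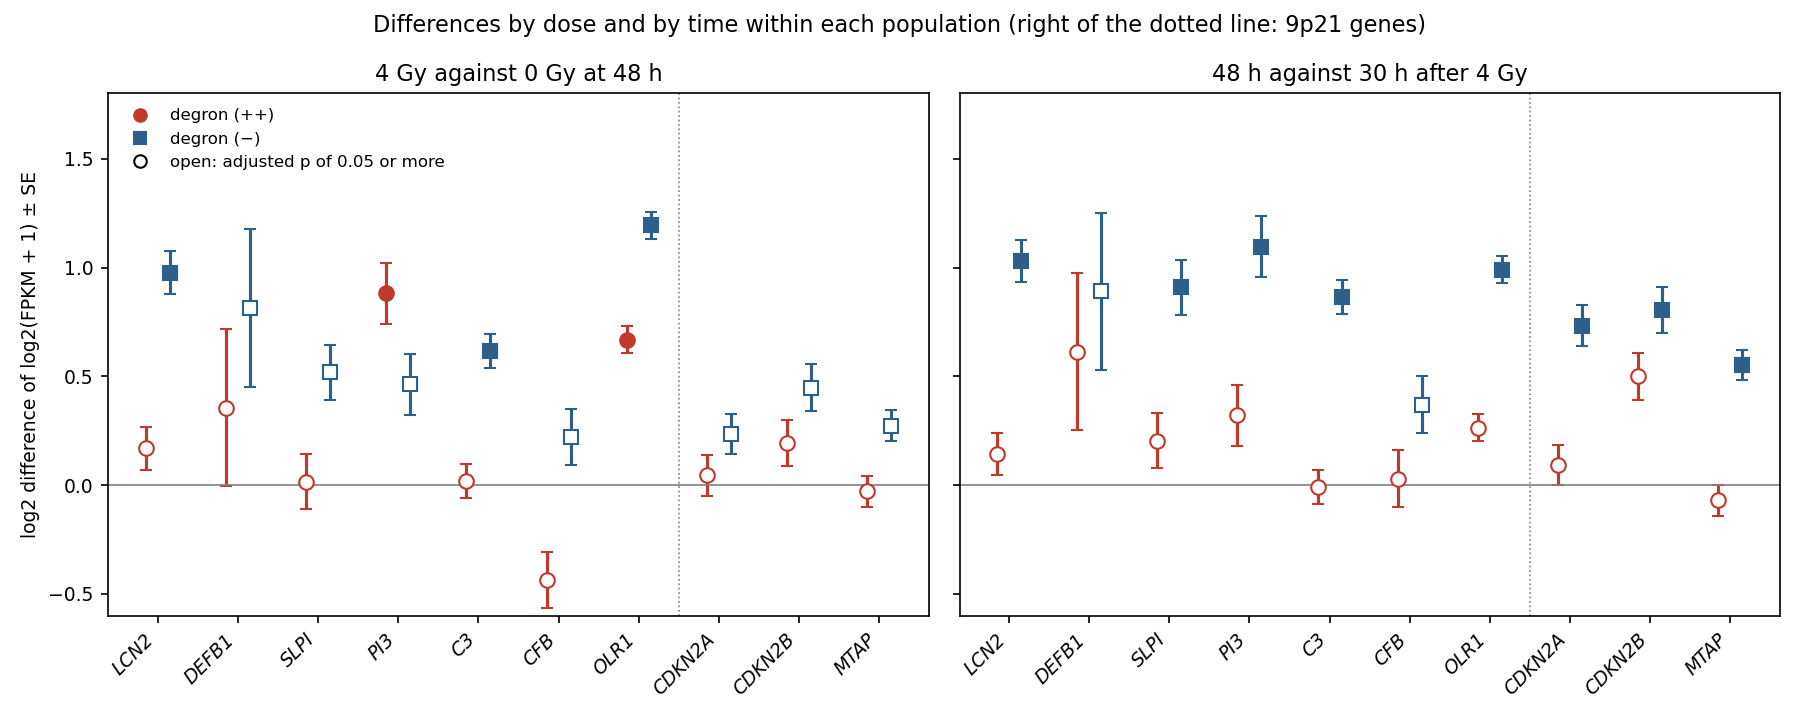
Log2 difference (± SE, limma on log2(FPKM + 1)) by dose at 48 h and by time after 4 Gy, in degron (++) (red circles) and degron (−) cells (blue squares); filled points have an adjusted p under 0.05. In the panel by time, LCN2, SLPI, PI3, C3 and OLR1 are filled in degron (−) cells at 0.86 to 1.10, no member is filled in degron (++) cells, and CDKN2A, CDKN2B and MTAP, right of the dotted line, are also filled in degron (−) cells at 0.55 to 0.80.

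Other genes that were higher in degron (++) cells moved between the degron (−) libraries as well. CDKN2A, CDKN2B and MTAP are neighbours on chromosome 9, where CDKN2A and CDKN2B encode inhibitors of cyclin-dependent kinases and MTAP an enzyme of methionine salvage. In degron (−) cells CDKN2A was at 18.8 and 15.2 FPKM without irradiation, and with 4 Gy at 12.4 and 11 FPKM (30 h) and 21.1 and 19.1 FPKM (48 h). Between 30 h and 48 h after 4 Gy the means of CDKN2A, CDKN2B and MTAP stood at ratios of 1.72, 2.51 and 1.62 in degron (−) cells, and all 3 genes were called (log2 differences 0.73, 0.80 and 0.55, limma adjusted p = 0.00277, 0.00315 and 0.0028). The ratios of LCN2, OLR1, C3 and SLPI in the same comparison were 2.1, 2.49, 1.86 and 1.92. By dose at 48 h the 3 genes stood at ratios of 1.18, 1.61 and 1.26 in degron (−) cells. None was called (limma adjusted p = 0.201, 0.0519 and 0.0673), though CDKN2B and MTAP stood just outside the threshold. The ratios by dose were 2.02 for LCN2, 3.10 for OLR1, 1.56 for C3 and 1.45 for SLPI. Relative to the degron (++) mean of the same condition, CDKN2A in the 6 degron (−) libraries ran from 10.9% to 19.5%, LCN2 from 6.79% to 14.7%, SLPI from 11.5% to 22.8%, OLR1 from 4.78% to 10.7% and C3 from 21.1% to 45.6%. In bulk libraries a change in the number of cells that express a gene and a change in its level per cell cannot be told apart, and the part of the CDKN2A, CDKN2B and MTAP movement in the degron (−) results was not tested.

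**Figure D3:**
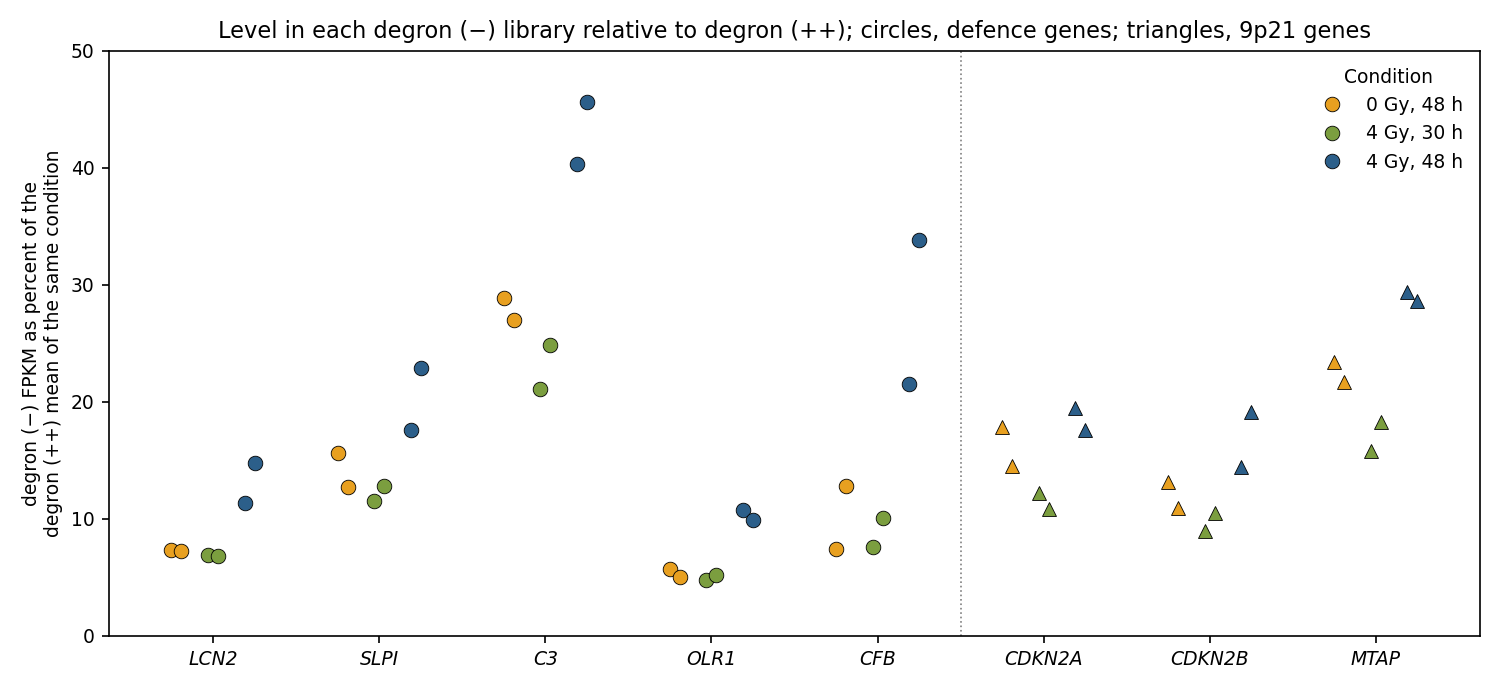
FPKM in each degron (−) library as a percentage of the degron (++) mean of the same condition, for 5 defence genes (circles) and 3 genes of chromosome 9 (triangles), coloured by condition. For all 8 genes both libraries at 4 Gy and 48 h (blue) lie above both at 4 Gy and 30 h (green), with C3 highest at 40.3% and 45.6% and CDKN2A at 19.5% and 17.6%.

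The difference between the populations in these effects was tested as an interaction. For time after 4 Gy, C3, LCN2 and OLR1 were called, with a larger rise in degron (−) than in degron (++) cells. The interaction was −0.87 ± 0.11 for C3, −0.89 ± 0.138 for LCN2 and −0.73 ± 0.0879 for OLR1 (log2, degron (++) minus degron (−), SE), with limma adjusted p of 0.00859, 0.0165 and 0.00719. SLPI (−0.70 ± 0.178, adjusted p = 0.0749) and PI3 (−0.78 ± 0.199, adjusted p = 0.0808) had the same sign and did not pass. The 3 calls among 7 members compare with 3.23% of all genes, and CDKN2A and MTAP were called too (−0.64 and −0.62, adjusted p = 0.0405 and 0.018). The call of LCN2 was lost without any 1 of 5 libraries (adjusted p = 0.052 to 0.0705), namely both degron (++) and both degron (−) replicates at 30 h and degron (++) replicate 1 at 48 h, as well as without the filter (0.0596) and when other libraries were left out of the fit (0.0562). SLPI was called without degron (−) replicate 1 at 4 Gy and 48 h (adjusted p = 0.0234). For dose at 48 h no member was called by limma, against 0.0772% of all genes, and 5 of the 7 had an unadjusted p under 0.05. Among these were LCN2 (−0.81 ± 0.138 SE, adjusted p = 0.0868), OLR1 (−0.53 ± 0.0879, adjusted p = 0.0812) and C3 (−0.60 ± 0.11, adjusted p = 0.0981). LCN2 was called by dose and population without degron (−) replicate 1 at 4 Gy and 48 h (adjusted p = 0.00189).

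Fits over both populations, with population as a term, gave an effect averaged over the populations from 8 libraries. These fits hold no interaction, so a difference in the effect between the populations adds to their spread. For time, that difference was called for C3, LCN2 and OLR1. For dose at 48 h OLR1 (log2 difference 0.93 ± 0.105 SE, limma adjusted p = 0.0118) and PI3 (0.67 ± 0.116 SE, adjusted p = 0.0332) rose, against 2.36% of all genes called. OLR1 was higher in 4 of 4 irradiated libraries than in the unirradiated libraries of its population, and so was PI3. The call of PI3 was lost without any 1 of the 8 libraries (adjusted p = 0.0541 to 0.095), without the filter (0.113) and with a replicate block (0.0529). That of OLR1 held without each library and was lost without the filter (0.0701). For time after 4 Gy no member was called, against 0.0309% of all genes (4 genes), and 6 of the 7 had an unadjusted p under 0.05.

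**Figure D4:**
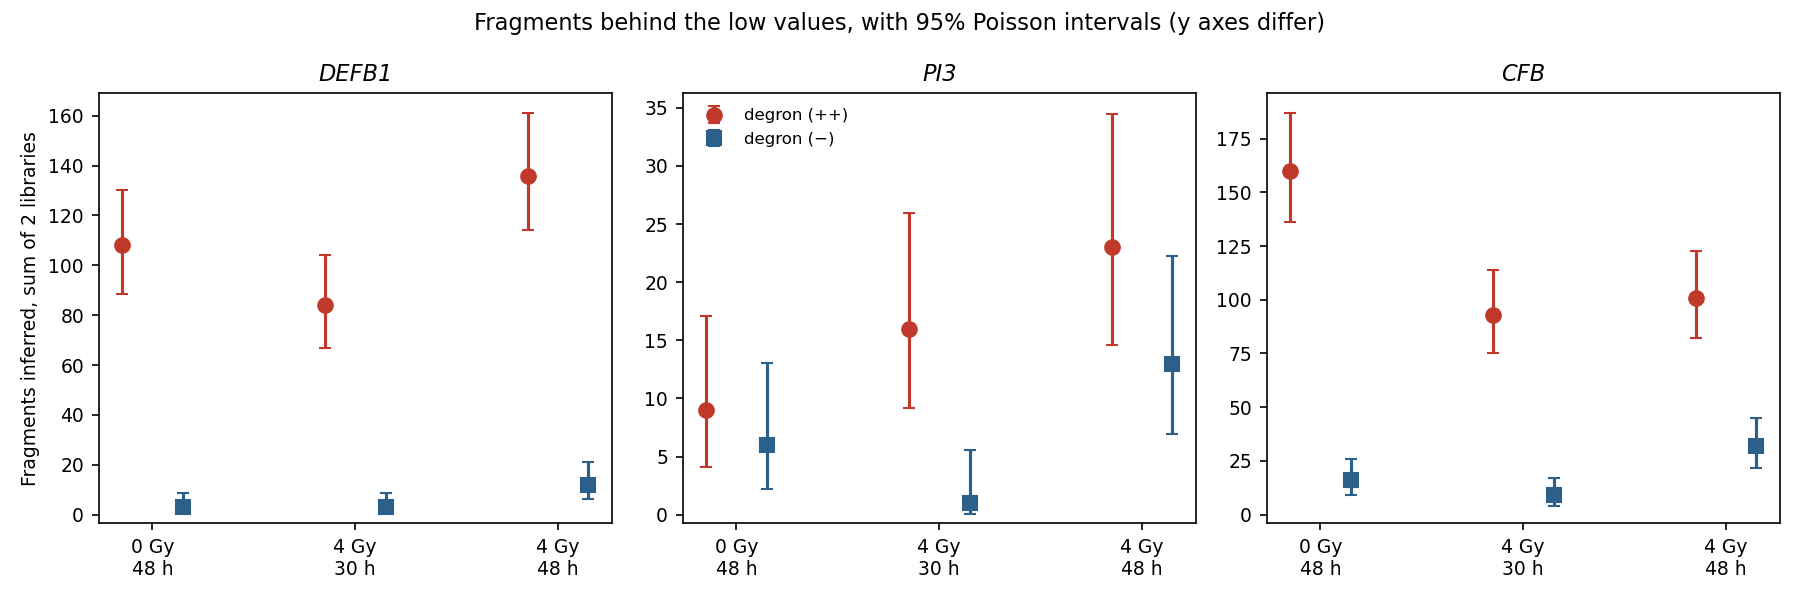
Fragments inferred for DEFB1, PI3 and CFB, summed over the 2 libraries of each group, with 95% Poisson intervals (counting error only); red circles are degron (++) and blue squares degron (−) cells. DEFB1 has 84 to 136 fragments in degron (++) groups and 3 to 12 in degron (−) groups, and the intervals of PI3 overlap between populations at 0 Gy and 48 h.

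The genes were also compared with each other within a population, so that the difference between the population means does not enter. Over the 6 degron (−) libraries, the 21 pairs of the 7 tested members had a median Pearson r of 0.857 on the log2(FPKM + 1) scale, from 0.658 to 0.967. Over the 6 degron (++) libraries the median was 0.335, from −0.804 to 0.921, and 1 pair exceeded 0.8 against 13 in degron (−) cells. These are descriptions over 6 libraries in 3 groups, which share depth and condition. No such figure is given for other genes higher in degron (++) cells. The part of the CDKN2A, CDKN2B and MTAP movement in the degron (−) correlations was not tested.

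Over all 12 libraries, the genes most like LCN2 were PEG10, a gene derived from a retrotransposon (r = 0.999), and CLDN4, a tight junction claudin (r = 0.999). SLC44A2, a choline transporter, and AVPI1 were most like SLPI (r = 0.999 each). GRAMD3 and NTN4, a secreted netrin, were most like DEFB1 (r = 0.992 and 0.991). ST14, the membrane protease matriptase, and DIO2, a thyroid hormone deiodinase, were most like C3 (r = 0.996 and 0.995). From 2105 to 2645 genes had an r over 0.95 with each of these 4 members, since the difference between the populations dominates the correlation. In degron (−) cells CLDN4 was at 36.1 to 60.5 FPKM against 165 to 187 FPKM in degron (++) cells, and ST14 at 12.6 to 27.1 FPKM against 96.6 to 104 FPKM.

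The listed genes next to each member along the chromosome were read for comparison. PTGES2 and C9orf16, beside LCN2, were higher in all degron (++) libraries by mean log2 differences of 0.91 and 1.26, against 3.49 for LCN2. CLEC7A and C12orf59, beside OLR1, were higher by 1.19 and 1.28, and TNFSF14 and GPR108, beside C3, by 0.53 and 0.47. Beside CFB, ZBTB12 overlapped between the populations and RDBP was lower in degron (++) cells (−0.81 on the log2 scale), at 42.2 to 48.0 FPKM against 76.2 to 86.3 FPKM. The neighbours of SLPI, PI3 and DEFB1 did not exceed 0.412 FPKM in any library. FAIM3, beside PIGR, was at 0.844 to 1.45 FPKM in degron (++) and 0.227 to 0.460 FPKM in degron (−) libraries, while PIGR itself was near 0.

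The other genes of the same pathways were taken from 10 lists. Of 238 genes written, 236 were in the files and 106 passed the filter, so most of these genes were too low to test. Among the 106, 45 had all degron (++) libraries above all degron (−) libraries and 37 had them below, beside 34.1% above and 37.2% below over all genes tested. The median difference was 0.20 on the log2 scale against −0.02 over all genes tested. After TPM rescaling it was −0.01 for the lists, against −0.27 to −0.21 by condition over all genes tested. The counts called in each list stand beside 1.82% of all genes by dose in degron (++) and 4.73% in degron (−) cells, 1.21% and 7.18% by time, and 3.23% for the interaction of time and population. By dose over both populations 2.36% of all genes were called, with 251 higher and 54 lower. Most calls over all genes in degron (−) cells were higher, with 499 higher and 113 lower by dose and 778 higher and 152 lower by time.

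Of 41 other antimicrobial proteins, 8 passed the filter, and of these 1 was higher and 2 were lower in all degron (++) libraries. The higher gene was DMBT1, a mucosal scavenger that binds bacteria, at 94.4 to 132 FPKM in degron (++) and 10.7 to 22.9 FPKM in degron (−) libraries. DMBT1 also rose between 30 h and 48 h after 4 Gy in degron (−) cells (log2 difference 0.86 ± 0.0989 SE, limma adjusted p = 0.00172), as 1 of 8 genes of its list, and its interaction of time and population was called (−0.75, adjusted p = 0.0298). ADM, encoding the peptide adrenomedullin, was lower in degron (++) cells, at 13.6 to 19.0 FPKM against 102 to 110 FPKM, and RNASE4, a secreted ribonuclease, was lower too (−0.54 on the log2 scale). ZG16B, a secreted lectin, was called by dose in degron (−) cells (0.69 ± 0.131 SE, limma adjusted p = 0.023).

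Of 9 other antiproteases tested, 7 were higher and 2 lower in all degron (++) libraries, with a median log2 difference of 1.05. CST6, a secreted cystatin, was at 213 to 269 FPKM in degron (++) and 26.6 to 53.7 FPKM in degron (−) libraries, and WFDC2, which shares the whey acidic protein domain with SLPI and PI3, was at 39.3 to 54.4 FPKM and 6.20 to 14.8 FPKM. SERPINB6 and CSTB were lower in degron (++) cells (−0.59 and −0.37 on the log2 scale). In degron (−) cells 4 of the 9 rose with dose (4.73% of all genes called) and 5 rose with time (7.18%), and none fell, in comparisons where most calls over all genes were higher. CST6 rose by 0.76 with dose (limma adjusted p = 0.00327) and by 0.90 with time (adjusted p = 0.000801), and WFDC2 by 0.97 (adjusted p = 0.0124) and 0.87 (adjusted p = 0.0129). SERPINA1, the main inhibitor of neutrophil elastase in blood, rose with dose by 0.55 (adjusted p = 0.0328), and SERPINB9, an inhibitor of granzyme B, with time by 0.57 (adjusted p = 0.000911). The interaction of time and population was called for CST6 (−0.90, adjusted p = 0.0104) and SERPINB9 (−0.69, adjusted p = 0.00583).

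Of 10 other complement genes tested, 4 were higher and 3 lower in all degron (++) libraries, with a median log2 difference of 0.06. After TPM rescaling this median was −0.12, against −0.27 to −0.21 by condition over all genes tested. C4BPB, a chain of the C4-binding protein, and C1RL, a C1r-like protease, were higher by 2.05 and 1.19, whereas CD59 and CLU stood at −1.42 and −1.12 on the log2 scale. In degron (++) cells CD55, which speeds the decay of convertases, and CLU rose with dose (0.38 and 0.27, limma adjusted p = 0.0465 and 0.0469). CD55 and CLU were also called by dose over both populations (0.31 and 0.22, adjusted p = 0.0375 and 0.0268). C1RL rose with time in degron (−) cells (0.43, adjusted p = 0.0327). C2, the counterpart of CFB in the classical pathway, was at 0.0490 to 0.269 FPKM in all libraries and was not tested.

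Of the acute phase list, 4 of 20 genes were tested and 3 were higher in all degron (++) libraries. SAA1 and LRG1, secreted proteins of the acute phase, were higher by 2.58 and 2.05 on the log2 scale. SAA1 was at 8.65 to 18.5 FPKM in degron (++) and 0.511 to 2.85 FPKM in degron (−) libraries, and rose with dose in degron (−) cells (1.10 ± 0.203 SE, limma adjusted p = 0.0214) and over both populations (0.90, adjusted p = 0.0319). SAA1 and SAA2 are near-identical copies between which reads may be split, so the values of SAA1 are uncertain. PTX3, a long pentraxin, rose with dose in degron (−) cells (0.57, adjusted p = 0.00788) and over both populations (0.44, adjusted p = 0.0352). In degron (++) cells PTX3 fell by 0.46 between 30 h and 48 h (adjusted p = 0.0422), from 21.9 and 21.9 FPKM to 15.3 and 16.0 FPKM, and its interaction of time and population was called (−0.56, adjusted p = 0.0409). LRG1 was called with time in degron (−) cells (0.36, limma adjusted p = 0.0291), at 0.351 and 0.371 FPKM at 30 h and 0.813 and 0.682 FPKM at 48 h. All its degron (−) values were below 1 FPKM, so it met the filter through degron (++) libraries alone, and this call rests on values near the floor.

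Of the 3 tested genes of immunoglobulin transport, beside PIGR, none was higher and 2 were lower in all degron (++) libraries, namely FCGRT, the neonatal Fc receptor, at 0.187 to 0.594 FPKM against 7.85 to 9.91 FPKM, and TRIM21, an antibody receptor of the cytosol. All 3 tested lipocalins and siderophore partners were lower in degron (++) libraries, in contrast to LCN2, with RBP4, the plasma carrier of retinol, at −2.51 and PTGDS, a prostaglandin D synthase, at −1.14 on the log2 scale. Of 11 scavenger receptors beside OLR1, 4 were higher and 5 lower. SCARA3 and CXCL16 were higher by 1.93 and 1.87, and CLEC2B and SCARF2 lower (−1.76 and −1.69 on the log2 scale). None of the 11 was called by dose, and with time in degron (−) cells AGER, the receptor for advanced glycation end products, rose by 0.69 (limma adjusted p = 0.0379) and SCARF1 fell by 0.30 (adjusted p = 0.0467).

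All 23 genes of the list of NF-kB, STAT3 and C/EBP regulators passed the filter, with 7 higher and 11 lower in all degron (++) libraries and a median log2 difference of −0.39. CEBPD, a C/EBP factor of the acute phase response, was higher by 2.21 and IKBKE by 1.31, and the inhibitors NFKBIB and NFKBIE were lower (−2.17 and −1.41 on the log2 scale). With dose, 3 of the 23 rose in degron (++) cells, where 1.82% of all genes were called, and 8 rose and 1 fell in degron (−) cells, where 4.73% were called. TNFAIP3, which encodes the NF-kB inhibitor A20, rose by 0.57 in degron (++) (limma adjusted p = 0.014) and 0.48 in degron (−) cells (adjusted p = 0.00919). NFKB2 rose in degron (++) by 0.47 (adjusted p = 0.0156) and NFKBIA by 0.27 (adjusted p = 0.0373). With dose over both populations, where 2.36% of all genes were called and most were higher, 5 genes rose. Among them were TNFAIP3 (0.52), NFKB2 (0.41) and RELB (0.31). In degron (−) cells CEBPD rose with dose by 0.58 (adjusted p = 0.00788) and with time by 0.76 (adjusted p = 0.00143), IKBKE with dose by 0.48 (adjusted p = 0.0377) and TNFAIP3 with time by 0.29 (adjusted p = 0.0468). In degron (++) cells NFKBIZ, a co-regulator of LCN2, and BCL3 rose between 30 h and 48 h by 0.52 (adjusted p = 0.0405) and 0.50 (adjusted p = 0.0193). The interaction of time and population was called for BCL3 (0.68, adjusted p = 0.0139), CEBPD (−0.60, adjusted p = 0.0339) and TNFAIP3 (−0.54, adjusted p = 0.0315).

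Of 26 tested cytokine and Toll-like receptor genes, 12 were higher and 8 lower in all degron (++) libraries. IL6, an inducer of the acute phase response, was at 16.3 to 28.9 FPKM in degron (++) and 4.30 to 10.7 FPKM in degron (−) libraries, and IL1RN, the interleukin 1 receptor antagonist, was higher by 1.65. IL17RB and IFNGR2, cytokine receptor chains, were lower (−3.98 and −1.75 on the log2 scale). With dose 4 rose in degron (−) cells, and IL6 (0.92, limma adjusted p = 0.00789), IL1A (0.75, adjusted p = 0.045) and IL1B (0.69, adjusted p = 0.0474) were the 3 with the largest differences. IL6 also rose with time in degron (−) cells (0.78, adjusted p = 0.0108) and with dose over both populations (0.78, adjusted p = 0.016). IL1RAP rose with time in degron (−) cells (0.41, adjusted p = 0.00238), with an interaction of −0.39 (adjusted p = 0.0278), and IFNGR2 fell by 0.24 (adjusted p = 0.0223).

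Of 9 tested epithelial transcription factors, 7 were higher and 1 lower in all degron (++) libraries, with a median log2 difference of 1.67. ELF3, an epithelial ETS factor, was at 59.6 to 93.1 FPKM in degron (++) and 3.05 to 10.9 FPKM in degron (−) libraries, and KLF5, a Krüppel-like factor, was higher by 2.59 while SPDEF, another ETS factor, was lower (−1.44 on the log2 scale). In degron (−) cells 4 of the 9 rose with dose and 6 rose with time, beside 4.73% and 7.18% of all genes called, most of them higher. ELF3 (1.35 ± 0.104 SE, limma adjusted p = 0.00035), OVOL1 (0.90, adjusted p = 0.00241) and GRHL2 (0.80, adjusted p = 0.000985) rose most with time, and OVOL1 (0.63, adjusted p = 0.0196), KLF4 (0.52, adjusted p = 0.0269) and EHF (0.45, adjusted p = 0.0371) with dose. EHF was also called by dose over both populations (0.39, limma adjusted p = 0.036). In degron (−) cells EHF was at 0.127 and 0.309 FPKM at 0 Gy, and at 0.610 and 0.716 FPKM at 4 Gy and 48 h. All its degron (−) values were below 1 FPKM, so it met the filter through degron (++) libraries alone, and its degron (−) call rests on values near the floor. In degron (++) cells none of the 9 was called by dose or by time with limma. The interaction of time and population was called for 4 of the 9, with −0.99 for ELF3, −0.79 for OVOL1 and −0.78 for KLF4 (adjusted p = 0.0145, 0.0356 and 0.0282). The part of the CDKN2A, CDKN2B and MTAP movement in these degron (−) results was not tested either.

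**Figure D5:**
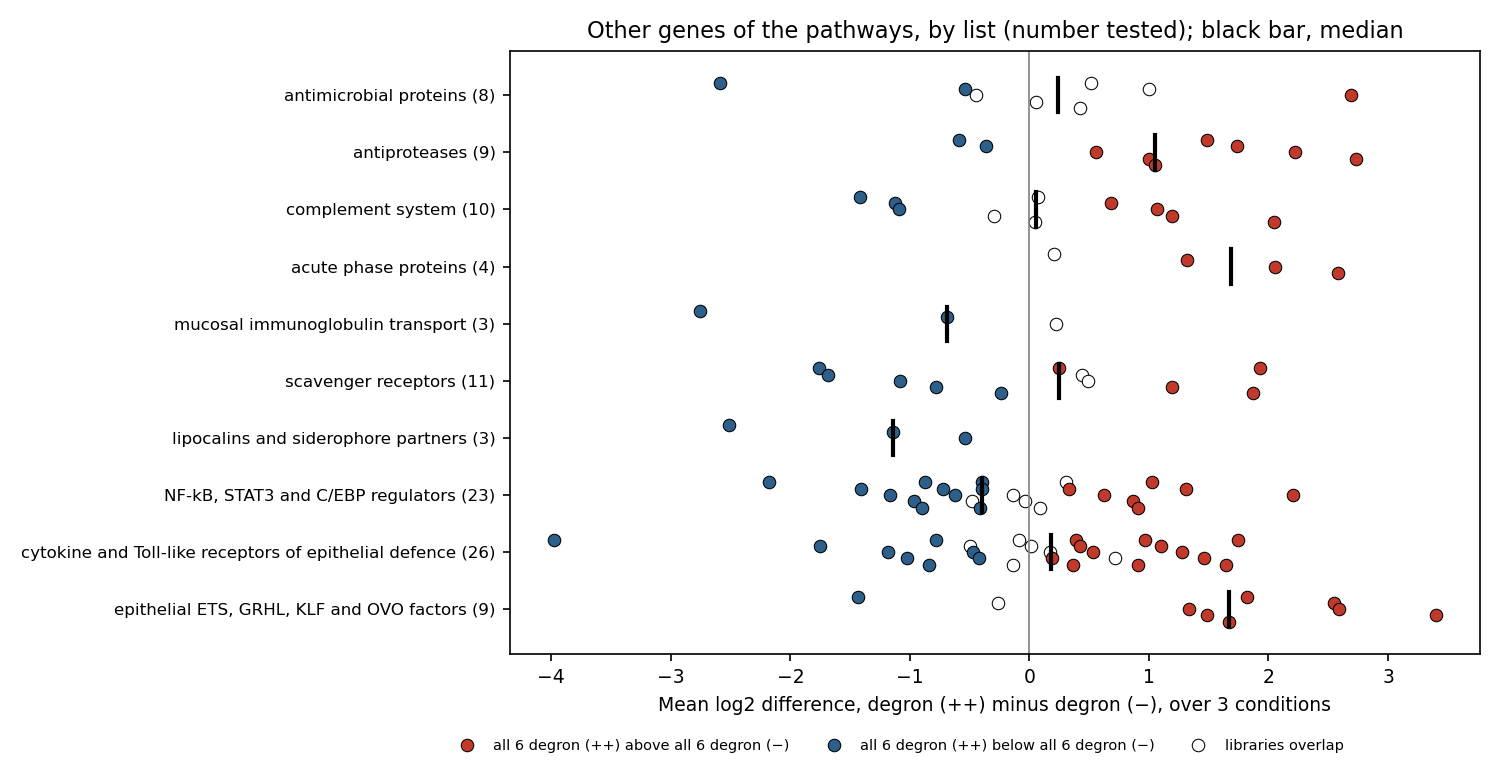
Mean log2 difference between degron (++) and degron (−) over the 3 conditions for each tested gene of the 10 lists, with the number tested in brackets; red and blue points are genes whose 6 and 6 libraries do not overlap, white points overlap, and black bars are medians. Antiproteases (median 1.05), acute phase proteins (1.69) and epithelial factors (1.67) lie mostly to the right, and lipocalins (−1.14) and immunoglobulin transport (−0.69) to the left.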

How the data were processed

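The submitters deposited 1 table per library with 23284 gene symbols and FPKM values, which the authors made from stranded mRNA libraries. Their processing notes name hg19, TopHat2 2.1.1, Bowtie2 2.2.8, SAMtools 0.1.18 and Cuffdiff 2.2.1, without roles. Read totals were not given in the sources used here. Relative depth, 0.856 to 1.16 times the mean, was estimated from steps between values up to 0.6 FPKM. Fragments were inferred from steps of 0.324 FPKM for DEFB1, 0.239 for PI3, 0.0341 for CFB and 0.0205 for PIGR at mean depth. A step was accepted only if all values lay within 0.15 of a whole fragment. The largest deviation from a whole fragment ran from 0.0059 for PI3 to 0.037 for PIGR. Values were log2(FPKM + 1), and limma (3.58.1) fitted 6 group means with a trended variance, adjusting p over 12946 genes at a threshold of 0.05. The step was tested on simulated data. Members and lists were chosen with earlier results of these data known. Genes named from a list were the up to 3 called with the largest log2 difference per comparison and up to 2 non-overlapping genes per direction between populations; genes most like a member were ranked by Pearson r over 12 libraries, and neighbours by the reference gene order. Coordinates on hg19 were not used. Alternatives were pseudocount, filter, scaling, variance model, replicate block, the libraries fitted and leaving out each library. The values of 1 complement gene are not reported here.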

Additional observations from a re-analysis of the deposited data

Results flagged for a closer look

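The effect of time after 4 Gy differed between the populations for 3 members by the test of the difference itself (limma interaction, log2, degron (++) minus degron (−)). It was −0.87 for C3, −0.89 for LCN2 and −0.73 for OLR1. CDKN2A and MTAP, which are no members, had interactions of −0.64 and −0.62 in the same test. With 2 libraries per group, no group was large enough to be examined for a single library far from the others.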

How the results depend on the processing

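The 6 members with no overlap between populations stayed 6 with a pseudocount of 0.1, without the filter, with TPM rescaling and without each library, were 7 with quantile normalization, which adds PI3, and were 5 with a filter at FPKM 5, which removes CFB. TPM rescaling shifted the median of all genes between the populations by −0.25 to −0.19 on the log2 scale. A single gene, MIR622, made up 28.6% to 30.0% of the FPKM sum in degron (++) and 22.5% to 27.1% in degron (−) libraries. Its part in this shift was not tested. Members called by dose in degron (++) cells were 2, and 1 with a pseudocount of 0.1, without the filter, with a filter at FPKM 5 or with TPM rescaling, and 0 to 2 without each library. By dose in degron (−) cells they were 3, and 5 with quantile normalization (SLPI and PI3 added) and 4 with a filter at FPKM 5 (SLPI added). Fitting only the libraries compared gave 0 called by dose in each population and 0 by time in degron (−) cells, in place of 2, 3 and 5. By dose and population they were 0, and 1 with a pseudocount of 0.1 (OLR1), 1 with quantile normalization (OLR1), 2 with TPM rescaling (OLR1 and C3), and 0 to 1 without each library. By dose over both populations they were 2, and 0 without the filter, 1 with a filter at FPKM 5, and 1 to 2 without each library. By time in degron (−) cells the count was 5, also without each library, and 6 with a pseudocount of 0.1 and 4 with a filter at FPKM 5, which removes PI3. Without each library the count was 2 to 4 by time and population, 3 to 4 by dose in degron (−) cells, and 0 by time in degron (++) cells or over both populations. No log2 difference by dose or time printed for a member, and none of the 60 called for list genes or the 5 called for CDKN2A, CDKN2B and MTAP, changed sign under an alternative, whereas the plotted differences of SLPI and C3 by dose and of C3 and CFB by time in degron (++) cells, all smaller than their SE, did. A fit of few libraries has few degrees of freedom for the spread, and the cause of the other changes was not tested.

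Replicate numbers did not pair the libraries, since the replicate differences of 15 pairs of groups correlated at −0.0381 to 0.122 across genes, with 2 above 0.1. With the replicate block, members called by dose over both populations were 1 in place of 2 (PI3 lost; adjusted p = 0.0529), and the other counts did not move. All genes called with the block were 125 in place of 236 by dose in degron (++), 88 in place of 156 by time in degron (++), 2 in place of 10 by dose and population and 134 in place of 305 by dose over both populations. With TPM rescaling the genes called by dose were 57 in degron (++) and 341 in place of 612 in degron (−) cells, and by time 40 in degron (++) and 611 in place of 930 in degron (−) cells. Higher calls in degron (++) by dose were 34 of 57 with TPM rescaling and 184 of 236 without, and by time in degron (−) cells 726 of 1001 with quantile normalization and 778 of 930 without. The inferred fragments limit DEFB1, PI3, CFB and PIGR, and 2 libraries per group limit every test.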
